A study of Mus musculus with 24 samples.

Results

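ECM-treated MRL/MpJ (MRL) mice were compared with saline-treated MRL mice 21 days after a muscle injury. The comparison rests on 6 of the 24 bulk RNA libraries of the series, 3 ECM and 3 saline, chosen by their labels and tested over all 14159 genes with a symbol. MRL is an autoimmune-prone inbred strain, and the mice were females of 6 to 8 weeks at surgery. A piece of quadriceps muscle of 3 mm by 3 mm was removed, a model of volumetric muscle loss (VML), and the gap was filled with saline or with 50 µL of decellularized extracellular matrix (ECM), a hydrated powder made from porcine small intestine. Whole quadriceps muscle was sequenced after poly(A) selection, so each library mixes muscle fibres with every other cell of the tissue. Where a value is set beside another group, that group is uninjured MRL mice, MRL mice given polyethylene powder (PE), or the uninjured, saline-treated or ECM-treated C57BL/6J (B6) mice, with 3 libraries each and the same day for injured muscle. The study describes its 24 samples as independent, and nothing in the labels says which samples shared a cage or a day of collection.

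Implanted ECM is known for drawing a type 2 immune response, in which interleukin-4 and interleukin-13 act through the transcription factor STAT6. Macrophages under this signal take on alternative activation and switch on Arg1, Chil3, Retnla, Mrc1 and Mgl2, and eosinophils, which carry ribonucleases in their granules, enter the tissue. In injured muscle these cells stand beside satellite cells, fibro-adipogenic progenitors, vessels and regrowing fibres. The comparison asks which of these programmes differed between ECM and saline in a strain known for closing ear wounds without a scar.

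Values are log2 CPM, read counts scaled by the authors to library size with the TMM method, and a count of 0 stands at -3.65 in every library. Libraries correlated across genes at 0.939 to 0.967 within the ECM group, 0.947 to 0.972 within the saline group and 0.935 to 0.967 between the groups, so libraries of unlike treatment were about as close as libraries of the same treatment. Genes are not independent replicates. Skeletal muscle markers were high in all 6 libraries, with Ckm (muscle creatine kinase) at 11.99 to 13.47 and Acta1 (skeletal actin) at 14.49 to 14.82. Saline replicate 2 stood apart in genes of slow fibres, saline replicate 1 in immune and connective tissue genes, and ECM replicate 3 in milk genes, which were near 0 in it, and their values are given below beside the results. By the study's sample sheet all 3 ECM libraries shared 1 first sequencing index and all 3 saline libraries another, so within these libraries the index and the treatment cannot be told apart.

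After ECM, Mrgprg was higher in MRL muscle, and no other gene passed the test. Of 14159 genes, 1 was called higher (0.00706%) and none lower (0%) at an adjusted p under 0.05, in a limma fit of all 24 libraries with 1 coefficient per group and Benjamini-Hochberg adjustment over the whole table. The next smallest adjusted p was 0.86, for Rnase2a. Without adjustment, 242 genes were higher (1.71%) and 261 lower (1.84%) at p under 0.05. The 3 ECM libraries lay entirely above the 3 saline libraries in 963 genes (6.8%) and entirely below them in 804 (5.68%). The median log2 difference over all genes was -0.01. Over the 32 gene lists used here, 537 of 597 genes were measured, and 22 of these (4.1%) had an unadjusted p under 0.05, beside 3.55% of all genes. A gene described below with an unadjusted p alone did not pass the adjusted threshold. Standard errors and limma p-values rest on a spread pooled over all 8 groups, not only on the 6 compared libraries. With 3 libraries on each side, the smallest 2-sided p of an exact permutation test is 0.10.

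**Figure D1:**
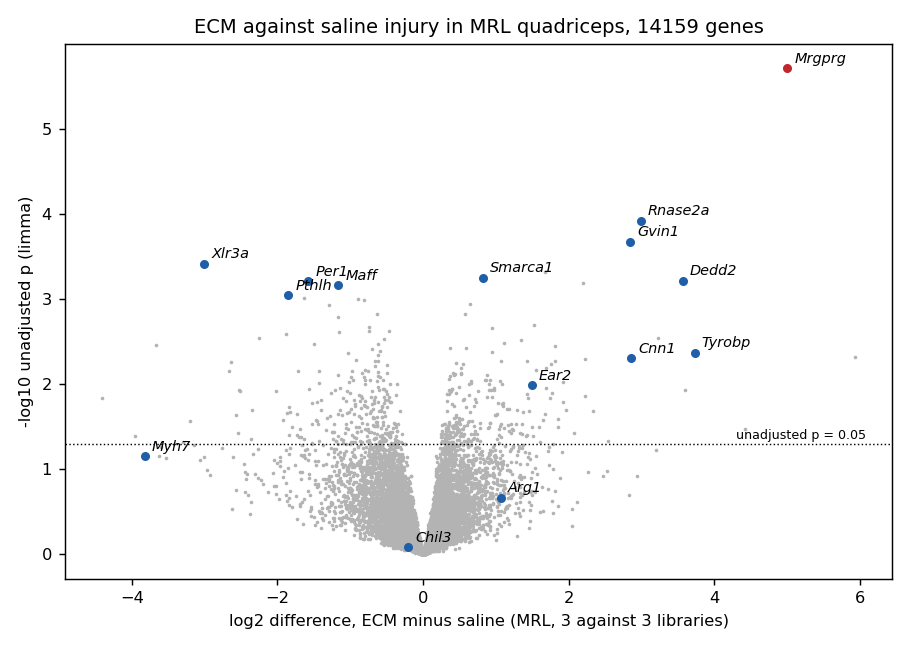
Each point is 1 of 14159 genes, with the log2 difference of ECM minus saline in MRL muscle on the horizontal axis and -log10 of the unadjusted limma p on the vertical axis. Mrgprg (red) lies alone at the top with a difference of 5.0, and the dotted line marks an unadjusted p of 0.05.

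Mrgprg encodes an orphan receptor of the Mas-related G protein-coupled family, many members of which are known from sensory neurons and mast cells. It lies on chromosome 7 from 143317447 to 143320733, minus strand, on GRCm39. It stood at 3.80, 4.37 and 0.869 CPM in the 3 ECM libraries and was listed at 0 in all 3 saline libraries, so the groups did not overlap. All 3 uninjured MRL libraries were also at 0, and the PE libraries stood at 0, 0.108 and 0.156 CPM. At the mean library size 3 counts correspond to 0.119 CPM, a limit that covers counting error only, so the PE values were near the floor and the ECM values above it. The fitted log2 difference was 5.0 (standard error 0.74, limma adjusted p = 0.0278). This size depends on the small prior count in the values and is no bound. In B6 mice the gene stood at 3.24, 4.26 and 0.870 CPM after ECM and at 0 to 0.0439 CPM after saline, a fitted difference of 4.50. The lowest of the 3 ECM libraries was replicate 3 in both strains, and the difference between the strains was 0.49 (unadjusted p = 0.644). The authors kept only genes over 1 CPM in at least 3 libraries. Among the groups named here Mrgprg was over 1 CPM in ECM libraries only, so its place among the tested genes came with its ECM level. The zeros after saline are therefore no separate support. The same was true of the filter for Rnase2a, described next.
The call of Mrgprg was lost when either ECM replicate 1 or 2 was left out (adjusted p = 0.334 and 0.461), when any saline replicate was left out (0.0679, 0.206 and 0.205) and on a log2(CPM + 1) scale (0.155), and it was kept without ECM replicate 3 (0.00958). Its direction could not turn in these fits, since all 3 saline libraries stood at 0 and all 3 ECM libraries above it.

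Rnase2a, which encodes a ribonuclease of the eosinophil-associated family, was second by p. It stood at 1.13, 1.26 and 2.09 log2 CPM after ECM and at -1.07, -2.32 and -1.08 after saline. Every ECM library lay above every saline library, also above the uninjured (mean -2.31 ± 1.04, SD, n = 3) and the PE libraries (-0.94 ± 0.38, SD, n = 3). Its log2 difference was 2.99 (standard error 0.62, unadjusted p = 0.000121, adjusted p = 0.86). Ear2, a second ribonuclease of that family, stood at 0.07, -0.42 and 1.07 after ECM and at -0.05, -1.32 and -2.39 after saline, with overlap between the groups. Its difference was 1.49 (standard error 0.52, unadjusted p = 0.0103). Rnase2a had no other gene whose transcript matched at 90% identity over 50% of the shorter one, while Ear2 had 6 such copies, none of them in the matrix, so reads counted for Ear2 may come from them. Both genes lie on chromosome 14 of GRCm39, Rnase2a from 51492719 to 51493595 on the minus strand and Ear2 from 44311771 to 44340996 on the plus strand.

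Of 12 eosinophil markers only 3 were in the matrix. The granule protein genes Epx and Prg2 and the receptor genes Ccr3 and Il5ra were not among the genes analysed here. Siglecf, the surface lectin used to recognise eosinophils, was near the floor in both groups, at -2.66, -2.78 and -3.65 after ECM and -2.27, -2.22 and -2.98 after saline. Cd300lf, an inhibitory receptor of myeloid cells, overlapped between the groups with a difference of 0.22. In whole tissue, fewer cells of a type and less RNA per cell cannot be told apart, and with Siglecf this low the source of the ribonuclease transcripts was not tested. By flow cytometry the study reports more SiglecF+ eosinophils after ECM than after control or PE injury in both strains. That counts cells by surface protein and not RNA of whole muscle.

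The 250 bases before the start are given for Mrgprg, Rnase2a, Ear2, Chil3 and Retnla, which are described here and below. These windows come from RefSeq on GRCm38.p6, and the set used held no window of Arg1. They are written 5′ to 3′ on the strand of the gene, in lower case, with 3 motifs in capitals. The first is the STAT motif as searched here, TTC and GAA with exactly 4 bases between, its own reverse complement. The others are GATAA on either strand (the GATA core) and CACGTG (the E-box), and none of the marked motifs overlap. TTC and GAA at other spacings were not searched, so an unmarked window may still hold them. The STAT motif was found in 5.85%, GATAA in 22.6% and CACGTG in 6.02% of 32807 windows of this length, 1 per distinct start.
Mrgprg (chr7:143766994-143767243, minus strand): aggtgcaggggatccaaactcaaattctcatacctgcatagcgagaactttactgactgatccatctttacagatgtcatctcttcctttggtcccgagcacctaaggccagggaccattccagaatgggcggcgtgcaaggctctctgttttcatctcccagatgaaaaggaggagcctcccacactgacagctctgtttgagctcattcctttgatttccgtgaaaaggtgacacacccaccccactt
Rnase2a (chr14:51256113-51256362, minus strand): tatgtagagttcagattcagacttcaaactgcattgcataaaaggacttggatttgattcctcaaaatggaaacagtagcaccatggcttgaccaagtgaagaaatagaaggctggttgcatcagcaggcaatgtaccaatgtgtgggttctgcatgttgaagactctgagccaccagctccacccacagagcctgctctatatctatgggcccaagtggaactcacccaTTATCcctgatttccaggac
Ear2 (chr14:44102404-44102653, plus strand): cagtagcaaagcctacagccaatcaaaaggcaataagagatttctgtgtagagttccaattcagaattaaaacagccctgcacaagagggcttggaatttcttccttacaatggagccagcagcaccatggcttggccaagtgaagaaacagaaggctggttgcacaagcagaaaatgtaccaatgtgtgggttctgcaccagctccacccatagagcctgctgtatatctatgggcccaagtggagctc
Chil3 (chr3:106167565-106167814, minus strand): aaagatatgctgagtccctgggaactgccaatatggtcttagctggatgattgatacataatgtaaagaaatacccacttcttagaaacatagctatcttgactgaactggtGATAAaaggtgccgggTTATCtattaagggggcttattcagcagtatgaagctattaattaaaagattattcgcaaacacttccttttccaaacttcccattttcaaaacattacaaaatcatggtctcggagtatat
Retnla (chr16:48842359-48842608, plus strand): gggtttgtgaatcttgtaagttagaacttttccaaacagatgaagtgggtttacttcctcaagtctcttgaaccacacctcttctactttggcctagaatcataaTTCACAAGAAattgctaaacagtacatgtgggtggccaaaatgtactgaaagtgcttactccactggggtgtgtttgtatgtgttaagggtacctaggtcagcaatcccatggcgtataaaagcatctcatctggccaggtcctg
The windows of Rnase2a and Ear2 were alike, with 178 of 206 aligned bases identical (86.4%), against 54.7% to 65.1% for the other pairs among Mrgprg, Rnase2a, Ear2 and Chil3 aligned in the same way. Retnla held 1 STAT motif, which began 145 bases before the start, Rnase2a held 1 GATAA and Chil3 held 2. No marked motif was in the windows of Mrgprg and Ear2. A match of letters is a description and not a binding site.

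No gene of alternative macrophage activation passed the test in MRL muscle. Of 31 genes in this list 26 were measured, and 0 had an unadjusted p under 0.05. Of these, 15 were higher and 11 lower after ECM, with a median log2 difference of 0.15 beside -0.01 over all genes. In B6 mice, compared in their own 6 libraries, 21 of the 26 were higher after ECM and the median was 0.75 beside 0.03 over all genes. The MRL median was -0.18 without saline replicate 2 and 0.41 without saline replicate 1. The summed level of the list was 504.3 to 583.8 CPM in the ECM libraries and 405.4 to 892.9 CPM in the saline libraries, so the saline libraries spanned the ECM range.

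Arg1 encodes arginase, the enzyme that turns arginine into ornithine and a textbook marker of alternative activation. It stood at 1.30, 1.25 and 1.47 log2 CPM after ECM and at 0.14, -0.23 and 0.90 after saline. The groups did not overlap, but the difference of 1.07 had a standard error of 0.83 (unadjusted p = 0.22). That error pools all 8 groups, while the SD of the compared MRL groups was 0.11 after ECM and 0.58 after saline. In B6 mice the same gene went from 1.07 ± 0.31 after saline to 6.53 ± 1.75 after ECM (SD, n = 3 each), a difference of 5.45. The MRL response was smaller by 4.39 on the log2 scale (unadjusted p = 0.00145, adjusted p = 1.00 over all genes).

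Chil3 (Ym1), a chitinase-like protein secreted by alternatively activated macrophages, was at or near the floor in MRL muscle. It was listed at 0 in ECM replicate 1 and stood at 0.0445 and 0.255 CPM in the other ECM libraries, and at 0.243, 0.120 and 0 CPM in the saline libraries. Its MRL log2 difference of -0.21 (standard error 0.91) rests on these few counts and on the prior. In B6 mice it stood at 20.5 to 479.4 CPM after ECM and at 0.874 to 1.36 CPM after saline, with no overlap. The strain difference of the response, which includes that MRL value, was -6.38 on the log2 scale, with the smallest unadjusted p among the named genes of that comparison (8.49e-05, adjusted p = 1.00). Chil3 has 2 near-identical copies in the genome, Chil4 and a predicted gene, neither of which was in the matrix.

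Retnla, which encodes the secreted protein RELMα, varied more between MRL libraries than between treatments. It stood at -2.76, 1.90 and 5.86 log2 CPM after ECM and at -0.66, -2.75 and 4.52 after saline. The difference of 1.29 had a standard error of 2.52, and it turned to -0.80 without ECM replicate 3 and to -0.26 without saline replicate 2. In B6 mice the difference was 8.61, and the strain difference was -7.31 (unadjusted p = 0.0543).

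No receptor gene of alternatively activated macrophages reached an unadjusted p under 0.05 in MRL mice. Mrc1, the mannose receptor, stood at 5.17, 5.23 and 5.53 log2 CPM after ECM and at 5.77, 3.94 and 4.58 after saline, a difference of 0.55 with overlap. Clec10a, a galactose-type lectin, had the smallest unadjusted p of the list (0.0572), with 3.79, 4.25 and 4.53 after ECM and 4.43, 1.83 and 2.70 after saline. For Mgl2, a related lectin, the difference was 0.20 in MRL mice and 1.96 in B6 mice, which differed at an unadjusted p of 0.0362. Cish, a feedback inhibitor of cytokine signalling through STAT5, pointed down in MRL mice (-1.09) and up in B6 mice (2.11). That strain difference was -3.20 (standard error 0.94, unadjusted p = 0.00284).

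**Figure D2:**
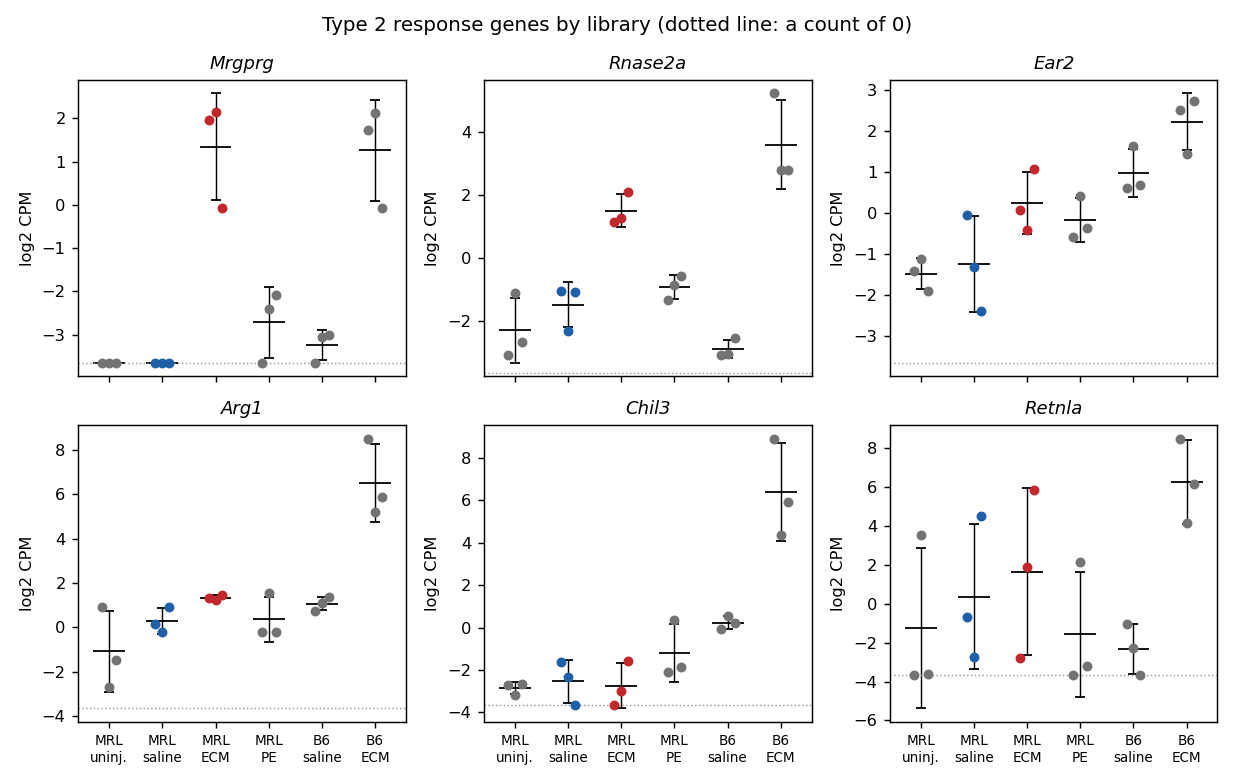
Each point is the log2 CPM of 1 library for 6 genes, by group along the horizontal axis, with MRL ECM in red, MRL saline in blue and other groups in grey, and bars give the mean ± SD of 3 libraries. Mrgprg and Rnase2a stand higher after ECM in both strains, while Arg1 and Chil3 lie above 4 in the B6 ECM libraries and below 2 in the other groups plotted.

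**Figure D3:**
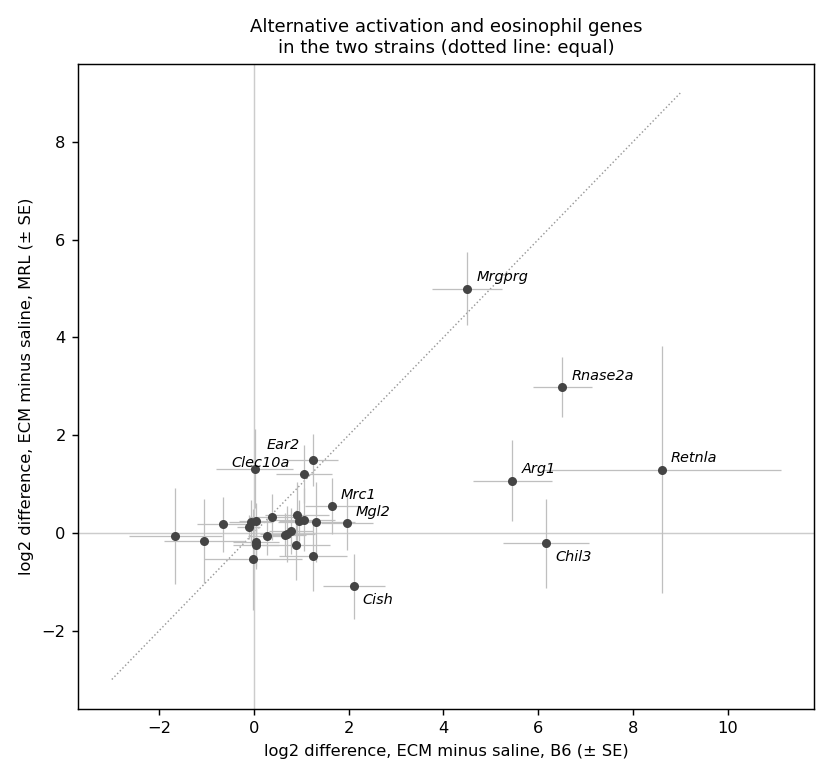
Each point is a gene of the alternative activation or eosinophil lists, or Mrgprg or Rnase2a, with the log2 difference of ECM minus saline in B6 mice on the horizontal and in MRL mice on the vertical axis, and bars give the standard error. Mrgprg lies near the dotted line of equal response (4.50 and 5.0), and Rnase2a, Arg1, Retnla and Chil3 lie below it.

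No general macrophage marker passed the test. Of 22 measured markers 11 were higher and 11 lower, with a median difference of -0.004, and 1 had an unadjusted p under 0.05. That gene was Tyrobp, an adaptor of activating receptors on myeloid cells, at 2.74, 2.11 and 0.112 CPM after ECM and at 0.000917, 0 and 0 CPM after saline. Other markers of the same cells were well above the floor in the saline libraries. Cd68, a lysosomal marker, stood at 3.83, 2.90 and 3.32 log2 CPM after saline and 2.75, 3.07 and 3.20 after ECM. C1qa, a complement gene made by tissue macrophages, stood at 5.89, 3.80 and 4.14 after saline and 4.64, 5.32 and 5.66 after ECM. Tyrobp spanned 0 to 0.839 CPM in uninjured MRL libraries and 0.474 to 1.42 CPM in PE libraries. The list's summed level was 562.8 to 752.8 CPM after ECM and 406.0 to 821.0 CPM after saline.

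Genes of lipid-associated macrophages, the cells that take up lipid through Trem2, pointed down, as 15 of 21 were lower with a median of -0.17, and 0 had an unadjusted p under 0.05. Mmp12, a macrophage elastase, stood at 4.98, 3.04 and 4.78 after ECM and 5.80, 5.94 and 6.28 after saline, and Gpnmb, a glycoprotein of lysosome-rich macrophages, at 4.96, 3.53 and 5.28 against 5.88, 5.79 and 6.25. Neither gene overlapped between the groups. Their differences were -1.74 (standard error 1.96) and -1.39 (standard error 1.52). These standard errors include the spread of the PE libraries, with SDs of 6.86 and 5.43. The SDs were 1.07 and 0.93 after ECM and 0.25 and 0.24 after saline, so the unadjusted p-values of these genes rest partly on the PE libraries. Without ECM replicate 2 the differences were -1.12 and -0.86. Itgax (CD11c) stood at 2.59, 0.79 and 3.74 after ECM and 3.91, 3.66 and 4.14 after saline, a difference of -1.53 that was -0.74 without ECM replicate 2. Spp1 (osteopontin) stood at 4.17, 5.07 and 2.33 against 4.38, 5.49 and 4.91, a difference of -1.07 that was -0.31 without ECM replicate 3. In B6 mice the list median was 0.75 and 20 of 21 genes were higher after ECM. In a list around hepatocyte growth factor (HGF) signalling, its receptor, its activating proteases and myeloid receptors, 12 of 15 measured genes were lower in MRL mice (median -0.18), 0 at an unadjusted p under 0.05. The integrin gene Itgb2 stood at 3.03 to 3.21 after ECM and 3.95 to 4.41 after saline, a difference of -1.07 (standard error 1.15). The study picked part of these genes from the same samples, so the list's direction is not independent evidence. The same holds for 27 genes the study names for ECM implants or macrophages, of which 26 were measured, 13 higher and 13 lower, 0 under 0.05, with a median of 0.06 in MRL mice and 1.20 in B6 mice. With a term for the first index the differences of Cd68, Itgb2, Itgax, Gpnmb, Mmp12 and Spp1 turned positive, at 2.68, 3.13, 6.26, 5.84, 8.33 and 7.41. For the MRL comparison that term is set by PE replicate 1 against PE replicates 2 and 3, so each of these values rests on 1 library on its side. PE replicate 2 stood far apart in the same genes, with Mmp12 at 7185 CPM against 0.455 and 46.0 CPM in PE replicates 1 and 3, Itgax at 1640 against 0.555 and 12.02 CPM, and Spp1 at 1496 against 0.579 and 37.0 CPM.

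Neutrophil and inflammatory myeloid genes had a median of -0.40, with 13 of 17 lower and 0 at an unadjusted p under 0.05. The median was -0.08 without ECM replicate 3. Lcn2, lipocalin of neutrophils and epithelia, stood at 4.51, 4.48 and -0.65 after ECM and 4.29, 4.62 and 4.83 after saline, a difference of -1.80 that was -0.083 without ECM replicate 3. ECM replicate 3 was also the library with the lowest milk genes. Csn3 (kappa-casein) stood at 7.01, 5.96 and -1.02 after ECM and at 6.15, 5.70 and 7.24 after saline, a difference of -2.38 that became 0.12 without ECM replicate 3. Of the 9 measured skin and mammary genes 6 were lower after ECM, with summed levels of 82.5 to 456.3 CPM after ECM and 212.0 to 422.1 CPM after saline. The mice were females, and the share of mammary tissue in a sample was not tested.

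Among chemokine, interferon-induced and antigen-presenting cell genes none passed the test. Of 27 chemokine and receptor genes, Ccl8, a monocyte attractant, had an unadjusted p under 0.05 (0.0206). It stood at 1.74, 3.15 and 4.63 after ECM and 3.10, -1.07 and 0.50 after saline, a difference of 2.33 with overlap, and of 3.96 in B6 mice. Cxcl9, an interferon-gamma target, differed by 1.38 (unadjusted p = 0.0515). Of 20 interferon-induced genes 18 were higher after ECM with a median of 0.51, against -0.07 in B6 mice. Ifit3, an antiviral protein, stood at 1.43, 2.35 and 1.61 after ECM and 1.28, -0.84 and 0.85 after saline, and Oasl2 at 2.71, 3.81 and 2.97 against 2.67, 1.24 and 2.52. Their unadjusted p-values were 0.0210 and 0.0226, and no other gene of the list was under 0.05. The list median was 0.25 without ECM replicate 2 and 0.27 without saline replicate 2.

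Gvin1 encodes a very large GTPase induced by interferon and had the smallest p over all genes after Mrgprg and Rnase2a. It lies on chromosome 7 from 105755763 to 105814533 on the minus strand of GRCm39. It stood at 0.472, 0.448 and 0.562 CPM after ECM and was listed at 0 in all saline libraries. It was also at 0 in 2 of 3 uninjured and 2 of 3 PE libraries of MRL mice and at 0.619 CPM in the remaining uninjured one, so the ECM level was within the spread of the other MRL groups. B6 libraries stood at 13.5 to 27.7 CPM. Gvin1 has 10 near-identical copies in the genome, so its counts are uncertain. Among dendritic cell genes Flt3, the receptor of a dendritic cell growth factor, differed by 1.05 (unadjusted p = 0.0488), and among 13 measured genes of that list no other was under 0.05. Of 12 measured T, NK and B cell markers 0 were under 0.05, with 9 higher and 3 lower. Pax5, the lineage factor of B cells, stood at 1.53, -0.47 and 0.51 after ECM and -3.35, -2.30 and -2.45 after saline (unadjusted p = 0.00290), while Cd79a and Ms4a1 were not among the genes analysed here. The saline values of Pax5 correspond to 0.0187, 0.123 and 0.104 CPM, under or close to the floor of 0.119 CPM. Of 8 mast cell markers 7 were lower and 0 under 0.05. Cpa3, the mast cell carboxypeptidase, stood at 0.68 to 1.83 after ECM and 1.89 to 2.27 after saline. Cma1, a chymase, stood at -3.57, 1.06 and 1.74 against 1.79, 1.84 and 1.76, with ECM replicate 1 near the floor at 0.00484 CPM. Of 16 complement genes 10 were lower, and Masp1, a protease of the lectin pathway, differed by -0.75 (unadjusted p = 0.0338).

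No connective tissue gene passed the test. Of 16 fibroblast and fibro-adipogenic progenitor markers 15 were lower, 5 with groups that did not overlap (beside 5.68% of all genes), and the median was -0.39. Prrx1, a mesenchymal transcription factor, stood at 6.16, 6.24 and 6.32 after ECM and 6.77, 7.35 and 6.64 after saline (difference -0.68, unadjusted p = 0.0252). Pdgfrb, the receptor of perivascular and stromal cells, stood at 5.17 to 5.39 against 5.45 to 6.02. Saline replicate 1 had the highest summed level of these markers, 4214 CPM against 1906 and 2140 CPM in the other saline libraries. Without it the list median was 0.01 and that of the 23 collagen chains was 0.23 in place of -0.26. None of the collagen chains had an unadjusted p under 0.05, and the basement membrane chain Col4a1 differed by -0.53 (standard error 0.32). Among 21 matrix proteases and inhibitors, the inhibitor Timp3 differed by -0.37 and the protease Adamts1 by -0.52, both with no overlap (unadjusted p = 0.0316 and 0.0379). Of 25 fibrosis and TGF-beta genes 13 were higher and 12 lower, 0 under 0.05. Pdgfa, a growth factor for stromal cells, stood at 5.13, 5.13 and 5.49 after ECM and 4.53, 4.66 and 4.77 after saline (difference 0.59, standard error 0.18).
White adipocyte genes were lower in 17 of 20 with a median of -0.25, and 0 of 20 had an unadjusted p under 0.05. Of 21 genes of fatty acid and cholesterol synthesis 0 were under 0.05, with a median of 0.06.

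No contractile gene passed the test, and slow and fast fibre genes pointed in opposite directions. Slow and oxidative fibres use Myh7, Tnnc1, Tpm3 and Atp2a2, and fast glycolytic fibres use Myh4 and Actn3. Myh7, the slow myosin heavy chain, stood at 2.29, 2.36 and 2.10 after ECM and 3.02, 9.71 and 5.50 after saline. Tnnc1, slow troponin C, stood at 0.73, 0.71 and 1.72 against 2.46, 7.16 and 2.99. In both the groups did not overlap, and saline replicate 2 was far above the rest. Without saline replicate 2 the differences of Myh7, Tnnc1, Tpm3 and Atp2a2 were -2.01, -1.67, -0.83 and -0.59. Over all libraries the differences of Myh7, Tnnc1, Tpm3 and Atp2a2 were -3.83, -3.15, -1.88 and -1.60, with unadjusted p-values of 0.0523 to 0.0702. Uninjured MRL libraries spread as widely, with Myh7 at 4.32 ± 3.57 (SD, n = 3). Myh2, the oxidative fast myosin, differed by -1.93 with overlap.
Fast genes pointed the other way by smaller amounts. Myh4, the fastest myosin of the limb, stood at 16.41, 16.19 and 16.15 after ECM and 15.35, 15.16 and 15.88 after saline, Actn3 differed by 0.89 and Ckm by 0.85, all with no overlap. Over the 25 fibre genes 9 were entirely higher and 4 entirely lower after ECM, beside 6.8% and 5.68% of all genes, and 0 had an unadjusted p under 0.05. Of 20 glycolysis and glycogen genes 14 were entirely higher after ECM, beside 6.8% of all genes, and 0 had an unadjusted p under 0.05. The median was 0.41, and the summed level was 57883 to 60125 CPM after ECM and 36622 to 51654 CPM after saline. Pygm, muscle glycogen phosphorylase, differed by 0.55 and Ldha, lactate dehydrogenase, by 0.59 with a standard error of 0.38. Fbp2, the muscle fructose-bisphosphatase, stood at 5.09, 5.21 and 4.26 against 2.77, 3.52 and 4.59 (unadjusted p = 0.0534). Oxidative phosphorylation genes were lower in 28 of 29 with a median of -0.23 and 0 under 0.05. With a term for the first index the glycolysis median was -0.34, and Myh4, Actn3, Ckm, Pygm and Ldha turned to between -0.37 and -0.010, values that again rest on PE replicate 1.

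No gene of muscle regeneration passed the test. Of 19 measured genes 14 were higher and 5 lower after ECM (median 0.22). Pax7, the satellite cell factor, stood at 1.31, 1.61 and 1.99 after ECM and 2.70, 2.36 and 2.03 after saline, entirely lower with a difference of -0.72 (unadjusted p = 0.0492). Mstn, which encodes the growth inhibitor myostatin, stood at 6.59, 6.22 and 6.10 against 5.09, 5.08 and 5.80, entirely higher with a difference of 0.98 (unadjusted p = 0.0693). Of 21 genes of acetylcholine receptors, denervation and atrophy 0 were under 0.05. Of 22 proliferation genes Aurka, a mitotic kinase, was under 0.05, at 4.09, 4.01 and 4.42 after ECM and 2.34, 3.34 and 3.64 after saline (difference 1.06, unadjusted p = 0.0295).

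No vessel or blood gene passed the test, and most endothelial and red blood cell markers were lower on average. Of 15 endothelial markers 10 were lower, 6 of them entirely below the saline libraries beside 5.68% of all genes, with a median of -0.42. Prox1, the lymphatic endothelial factor, stood at 2.27, 2.08 and 2.31 after ECM and 3.09, 3.44 and 2.77 after saline. Esam, an endothelial adhesion molecule, stood at 4.32, 4.27 and 4.17 against 4.69, 4.98 and 4.74, and Tek, the angiopoietin receptor, at 4.98, 4.96 and 4.19 against 5.03, 5.31 and 5.36. Their unadjusted p-values were 0.0323, 0.0306 and 0.0450. Cdh5 (VE-cadherin) differed by -0.58 (unadjusted p = 0.0580), and S1pr1, an endothelial and lymphocyte lipid receptor, by -0.74 (unadjusted p = 0.00213). Of 11 smooth muscle and pericyte markers 8 were higher and 3 lower, with a median of 0.38 and 3 at an unadjusted p under 0.05. These were the pericyte genes Rgs5 and Cspg4, which differed by -0.77 and -1.20 with overlap, and Cnn1, a smooth muscle calponin, which differed by 2.85 with 2 saline libraries at the floor.
All 6 measured red blood cell markers were lower on average, with a median of -1.58 (-1.53 in B6 mice), and 2 were under 0.05 without adjustment. Hbb-bs, a beta-globin, stood at 8.05, 7.0 and 6.68 after ECM and 7.70, 9.47 and 9.46 after saline, and Hba-a1 at 8.64, 7.62 and 7.27 against 8.28, 10.09 and 10.14. Saline replicate 1 lay within the ECM range for both genes. The amount of blood left in a muscle was not measured. Hba-a1 has 1 near-identical copy, Hba-a2. Of 10 nerve and Schwann cell markers 0 were under 0.05.

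Of 14 circadian clock genes 2 had an unadjusted p under 0.05, and both encode period proteins, which repress their own transcription by binding the factors that act at E-boxes. Per1 stood at 4.94, 4.96 and 4.40 after ECM and 6.17, 6.44 and 6.45 after saline, entirely lower with a difference of -1.58 (standard error 0.39, unadjusted p = 0.000620, adjusted p = 0.886). Per2 stood at 3.10, 2.85 and 2.90 against 3.96, 3.84 and 3.90 (difference -0.95, unadjusted p = 0.0226). Uninjured MRL libraries were near the saline level, at 6.19 ± 0.30 for Per1 and 3.91 ± 0.14 for Per2 (SD, n = 3), and PE libraries stood at 4.95 ± 0.41 and 3.32 ± 0.41 (SD, n = 3). In B6 mice Per1 stood at 4.34 ± 1.08 uninjured, 4.47 ± 0.38 after saline and 4.65 ± 0.58 after ECM (SD, n = 3 each), near the MRL ECM level. The hour at which muscle was collected is not given in the sources used here, so its part was not tested. The upstream window of Per1 is shown for its E-box, which begins 166 bases before the start. It belongs to 1 of 2 starts listed for the gene, and the other window held no E-box.
Per1 (chr11:69098699-69098948, plus strand): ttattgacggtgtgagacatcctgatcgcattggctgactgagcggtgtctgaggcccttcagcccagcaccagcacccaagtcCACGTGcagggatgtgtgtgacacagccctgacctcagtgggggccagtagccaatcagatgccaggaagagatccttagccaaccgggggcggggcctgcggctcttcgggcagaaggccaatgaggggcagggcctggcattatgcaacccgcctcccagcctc
Of 19 immediate early, heat shock and metallothionein genes 16 were lower with a median of -0.37 and 0 under 0.05. The heat shock gene Hspa1a stood at 3.53, 4.20 and 3.66 after ECM and 3.94, 5.79 and 4.94 after saline. Maff, a small Maf transcription factor induced by stress, stood at 1.40, 1.76 and 1.49 against 2.42, 3.11 and 2.63 (difference -1.17, unadjusted p = 0.000689).

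**Figure D4:**
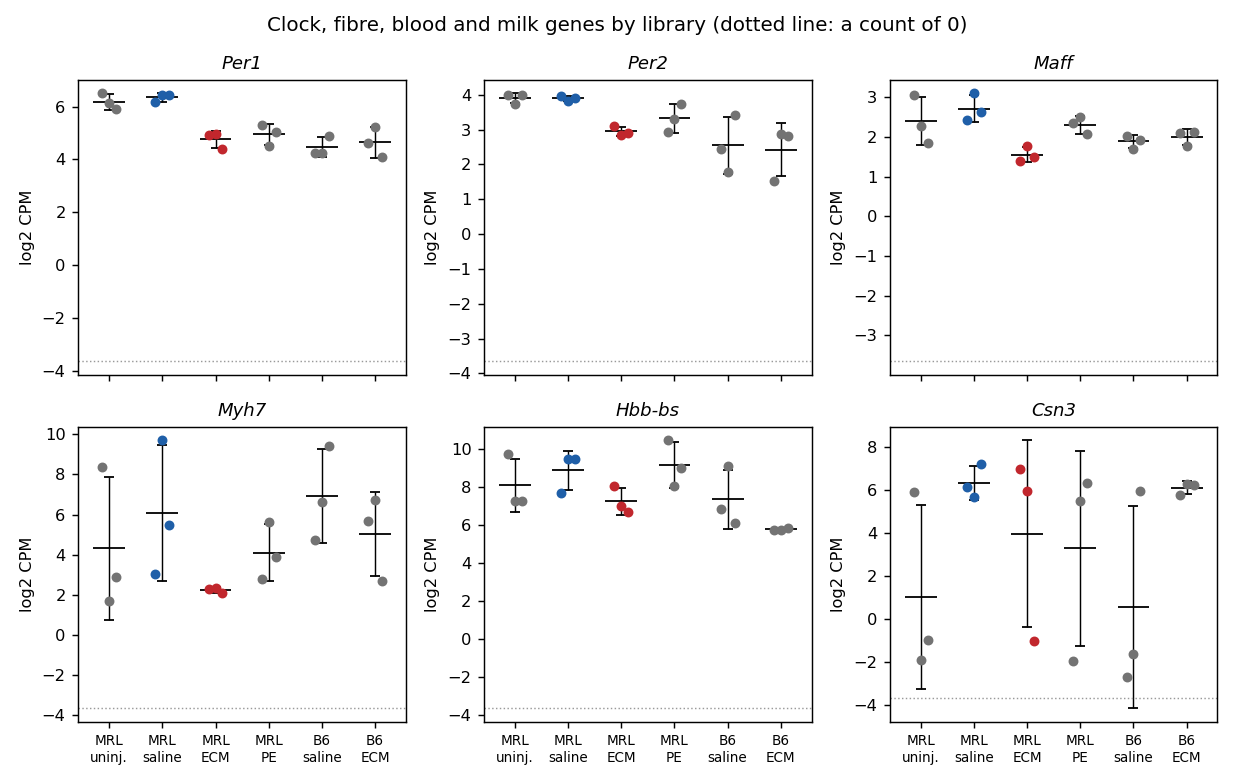
Each point is the log2 CPM of 1 library, by group along the horizontal axis, with MRL ECM in red, MRL saline in blue and other groups in grey, and bars give the mean ± SD of 3 libraries. Per1 and Per2 lie lower in all 3 MRL ECM libraries than in MRL saline and uninjured libraries, Myh7 is highest in saline replicate 2 at 9.71, and Csn3 is lowest after ECM in replicate 3 at -1.02.

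Other genes with small unadjusted p-values and groups that did not overlap belonged to no list. Higher after ECM were Smarca1, a chromatin remodelling ATPase, at 4.01, 3.80 and 3.93 against 2.84, 3.24 and 3.21, and Dedd2, a death effector domain protein, at 0.76, 1.44 and 1.37 against 0.18, -3.65 and -3.65. Smarca1 differed by 0.82 in MRL mice and 0.83 in B6 mice. For Dedd2, 2 of the 3 saline libraries were at the floor.
Lower after ECM were Pthlh, the parathyroid hormone-related peptide, at -1.77, -0.70 and -1.02 against 0.86, 0.64 and 0.56, and Xlr3a, at -1.47, -3.19 and -3.39 against 1.06, -1.01 and 0.92. Xlr3a has 7 near-identical copies, 1 of them in the matrix, so its counts are uncertain. In ECM replicates 2 and 3 Xlr3a stood at 0.0302 and 0.0161 CPM, under 3 counts at the mean library size. The zinc finger gene Zfp65 and the receptor-sorting gene Gprasp2 differed by -0.73 and -1.64, also with no overlap.

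**Figure D5:**
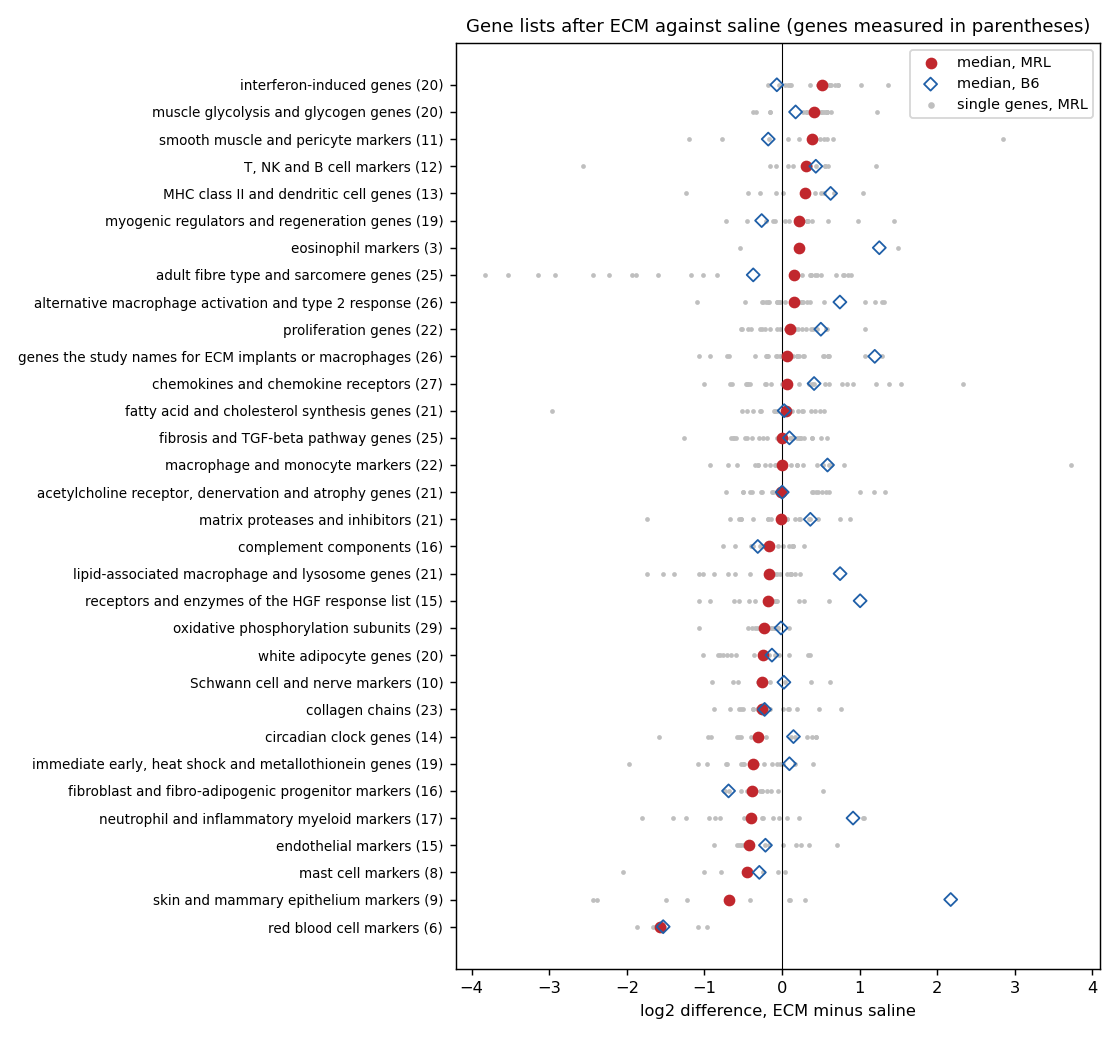
Each row is 1 of 32 gene lists with the number of measured genes in parentheses, grey points are the log2 differences of ECM minus saline of its genes in MRL mice, red points the MRL medians and open diamonds the B6 medians. Red blood cell markers have the lowest MRL median (-1.58) and interferon-induced genes the highest (0.51).

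Whether ECM acted differently in MRL and B6 mice was tested directly, as the MRL response minus the B6 response over all 24 libraries. No gene was called (0%), with 320 genes at an unadjusted p under 0.05 (2.26%). Rnase2a went in the B6 libraries from -2.91 ± 0.30 to 3.61 ± 1.41 (SD, n = 3 each), so its response was 3.53 smaller in MRL mice (unadjusted p = 0.000735). Its B6 saline libraries stood at 0.0378, 0.0401 and 0.0894 CPM, under the floor of 0.119 CPM, so this size depends on the prior. In other genes with a small p the strains pointed in opposite directions. Trib1, a pseudokinase that controls myeloid differentiation, differed by -0.80 in MRL mice and 0.65 in B6 mice, and the peptide hormone gene Apln by -0.93 and 0.65. Mfsd7b, a heme exporter also named Flvcr1, differed by -1.30 and 0.49. Dgat2l6 and Thoc5 differed by 1.05 and 0.40 in MRL mice and by -1.28 and -0.32 in B6 mice. Per1 differed by -1.58 and 0.18 (strain difference -1.77, unadjusted p = 0.00441). With 1 weight per library, 465 genes were called in this comparison, among them Chil3, Rnase2a, Arg1, Cish, Mfsd7b, Trib1, Apln, Per1 and Thoc5. The smallest p-values of that limma fit belonged to predicted genes such as Gm6472 and Gm8210. In it 2959 genes had an unadjusted p under 0.05, against 320 in the main fit, and the estimation of the weights stopped before it converged.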

How the data were processed

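Whole quadriceps RNA of 24 libraries (3 for each of 8 groups) was sequenced. The authors quantified reads with kallisto against Ensembl GRCm39 cDNA, a reference of the B6 strain, summed them to genes with tximport (lengthScaledTPM), kept genes over 1 CPM in at least 3 libraries, and deposited TMM-scaled log2 CPM with a prior count of 2. Of 14160 rows, 1 without a symbol was left out. The depth of each library is not in the values, and the mean effective library size they imply is 25149678.

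The values are not counts, so limma 3.58.1 (R 4.3.3) was fitted to log2 CPM with a variance trend, 2-sided. The fit was also run on simulated normal values, which had no floor and no outlying libraries. That run does not give the power for changes in these data. Subtracting the prior gave linear CPM. Members and gene lists were chosen with earlier results of these data known. Genes were named by rule: up to 15 per direction without overlap and with the smallest p (predicted genes and pseudogenes left out), up to 6 per list by p with its defining genes, 10 for the strain difference, and genes the study names. Not all genes the rule offers are printed, and some are not reported here. Of the symbols, 13126 matched GENCODE names on GRCm39, 662 matched older ones and 371 matched none. Copies were found with BLAST 2.17.0. Those not given above include 1 copy each for Ifit3, Hspa1a, Myh7 and Myh2, 9 for Mmp12 and 13 for Ldha. Reads counted for such genes may come from their copies. Alternatives tried were fewer libraries, other scalings and variance priors, a level filter (mean log2 CPM of at least 1), the log2(CPM + 1) scale, library weights, a replicate block, an index term and the removal of each replicate. P-values and standard errors rest on a spread pooled over all 24 libraries and moderated by limma. That spread may be partly technical, and for a gene it can differ from the spread of the 6 compared libraries. Samples were not treated as paired by replicate number. Deviations of same-numbered libraries correlated at -0.146, 0.203 and -0.244, and those of differently numbered ones at -0.235 to 0.305. These values do not settle whether a number marks a shared batch or cage.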

Additional observations from a re-analysis of the deposited data

How the results depend on the processing

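The count of 1 gene in MRL mice became 0 on the log2(CPM + 1) scale, with a filter that removes genes under a mean log2 CPM of 1, Mrgprg among them, with only the 12 MRL libraries, with a replicate block and with a term for the first index. It became 13 with library weights (5 higher, 8 lower), whose estimation stopped before it converged (as for the strain difference), and ranged from 0 to 1 when a replicate was left out. With only the 6 compared libraries it was 1, a different gene (Gm6565), and the adjusted p of Mrgprg was 0.532. Over its alternatives that p ran from 0.00152 to 0.709. The labels do not say what samples of equal replicate number share, and with the replicate block Mrgprg had an adjusted p of 0.0535. The count of 0 genes in the strain difference became 465 with library weights and 2 with the index term, and ranged from 0 to 6 when a replicate was left out. It was 6 without B6 saline replicate 3 and 1 without B6 ECM replicate 3. Scaling to equal totals moved the median of all genes from -0.01 to -0.098 in MRL mice and from -0.035 to -0.17 in the strain difference.

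With the index term, which for MRL mice rests on PE replicate 1 against PE replicates 2 and 3, the log2 difference turned sign for Siglecf (1.78), Chil3 (1.14), Mgl2 (-0.58), Cd68 (2.68), Itgb2 (3.13), Itgax (6.26), Gpnmb (5.84), Mmp12 (8.33), Spp1 (7.41), Lcn2 (1.53), Csn3 (5.47), Ckm (-0.021), Ldha (-0.010), Mstn (-0.36), Aurka (-0.043), Hspa1a (0.45), Myh4 (-0.29), Actn3 (-0.058) and Pygm (-0.37). With library weights it turned for Chil3 (0.033) and Retnla (-0.98). When a replicate was left out it ranged from -0.14 to 0.84 for Cd300lf, -0.79 to 0.24 for Chil3, -0.80 to 3.51 for Retnla, -0.19 to 0.69 for Mgl2 and -3.89 to 0.12 for Csn3, and the strain difference of Mrgprg ranged from -0.17 to 1.20. The cause was not tested. Of 1450 single-gene alternatives 1395 kept their direction and side of the threshold, and 478 of 511 list medians moved by less than the spread between replicates. Only Mrgprg was called in the main fit, so for the other genes the side of the threshold could hardly change. The 10 alternatives in which a call was lost were all of Mrgprg. Levels under 0.119 CPM rest on fewer than 3 counts at the mean library size. This limits, among others, Chil3, Siglecf, Pax5, Xlr3a, Tyrobp, Cma1, the saline level of Mrgprg and the B6 saline level of Rnase2a.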
